A study of Drosophila melanogaster with 3 samples.

Results

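The X chromosome carried 1434 of the 7287 peaks in the authors' final thresholded list for CG17359, and every entry of that list placed on X was taken. The other 5853 peaks lay on the autosomal arms, which are both arms of chromosomes 2 and 3 and the small chromosome 4. CG17359 was profiled by chromatin immunoprecipitation sequencing (ChIP-seq), which recovers and sequences the DNA that a protein occupies. The flies came from a transgenic line that stably expressed CG17359 fused at its C terminus to green fluorescent protein (GFP), and the chromatin of whole embryos aged 0 to 14 h was sheared by sonication and precipitated with an antibody against GFP. All 3 biological replicates belonged to this 1 group, and no untagged line, second stage or second tissue was among the samples analysed here. Peaks of every replicate were called against 1 shared control, and what was sequenced in it is not stated. Whole embryos of that age range mix all cell types and many stages, and the tagged protein came from a transgene. Read numbers are not in the peak lists, so depth is unknown and a signal value carries no counting error here.

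Male flies have 1 X chromosome and females have a pair, and in males the dosage compensation complex, which contains the roX RNAs, raises transcription from the X. The chromosome carries well known regulators of neural development, segmentation and sex determination. CG17359 is a protein with zinc fingers, the fold that many transcription factors use to touch DNA, and its own gene lies on an autosome. The sex of the embryos was not recorded per the labels, so the number of X copies behind each library and its control is unknown, and its part in the differences between X and autosomes was not tested.

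The sequences at 7 chosen X summits are given as examples, most of them from the strongest X peaks. They are the summit with 50 bases to each side, read from the + strand of the Release 6 (dm6) reference. Ugalt, CG32772, Gapdh2 and Tlk are nearest to 4 of the 6 strongest X peaks, lncRNA:CR43287 and Raf mark the strongest peaks of 2 dense clusters, and RpS28b has the strongest peak among ribosomal protein genes on X. Capitals mark matches on either strand to any of 14 known elements, here the A tract AAAAAA, the TATA box TATAAA, the TA repeat TATATATA, the initiator TCAGTT and the GAGA element GAGAG. The windows at ph-p (6785), CG43736, elav and Sxl, which are not printed, held no match. The one at lncRNA:CR44619 (4482), also not printed, held a TATA box.
Ugalt, chrX:2703829-2703929: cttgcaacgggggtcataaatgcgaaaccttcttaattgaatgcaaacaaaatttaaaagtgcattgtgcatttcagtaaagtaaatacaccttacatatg
CG32772, chrX:4910315-4910415: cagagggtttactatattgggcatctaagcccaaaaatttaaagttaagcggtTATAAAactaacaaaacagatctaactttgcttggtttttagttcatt
Gapdh2, chrX:15867929-15868029: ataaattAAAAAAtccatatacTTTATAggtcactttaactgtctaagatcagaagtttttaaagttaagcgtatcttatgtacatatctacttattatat
Tlk, chrX:3742174-3742274: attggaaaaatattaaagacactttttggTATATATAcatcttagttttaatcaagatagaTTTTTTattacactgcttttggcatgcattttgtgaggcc
lncRNA:CR43287, chrX:7706933-7707033: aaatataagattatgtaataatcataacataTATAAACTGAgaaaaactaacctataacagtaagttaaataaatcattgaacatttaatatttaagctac
Raf, chrX:2297665-2297765: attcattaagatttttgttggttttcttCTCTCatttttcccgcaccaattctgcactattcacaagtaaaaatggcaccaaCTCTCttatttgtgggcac
RpS28b, chrX:9554543-9554643: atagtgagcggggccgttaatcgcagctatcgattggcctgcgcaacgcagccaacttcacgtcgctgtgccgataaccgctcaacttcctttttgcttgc
The GC content of these windows was 33.7% at Ugalt, 31.7% at CG32772, 22.8% at Gapdh2 and 27.7% at Tlk. It was 18.8% at the lncRNA:CR43287 peak, 36.6% at Raf and 55.4% at RpS28b, against 42.5% for the whole X arm. The window at RpS28b thus stood above the arm, and the other 6 stood below it.

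The strongest X peaks were found at the same places in all 3 replicates. Signal values are the authors' own, and they were higher in the thresholded list than in a single replicate, so they were compared only within a list. The strongest X peak, with a signal value of 8435 in the thresholded list, was the second strongest of the genome and lay 27 bp from the start site of Ugalt, which encodes a UDP-galactose transporter. Its own signal value was 1999, 2901 and 3570 in replicates 1, 2 and 3, where it ranked 4, 1 and 2 among all peaks. The Polycomb group gene ph-p, which encodes a subunit of a repressive chromatin complex, had 2 peaks that lay between a pair of its start sites. The peak 482 bp upstream of the one start site had a signal value of 6785 (1697, 2424 and 2801 in the replicates), and the peak 463 bp downstream of the other had 3711 (1158, 967 and 1646). Gapdh2, a gene of glycolysis, had a promoter peak at 166 bp with a signal value of 5052 (1473, 1517 and 2072). At each of these 4 peaks replicate 3 had the highest value.

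Several of the strongest X peaks lay inside genes and away from start sites. The third strongest, in an intron of CG32772 at 1263 bp from its start site, had a signal value of 5204 (1308, 1680 and 2169 in the replicates). The peak in an intron of Tlk, which encodes the Tousled-like kinase, lay at 2327 bp with 4481 (1179, 1516 and 1778). The peak in an intron of Raf, the kinase between Ras and the MAP kinase pathway, lay at 2249 bp with 3772 (1001, 1256 and 1524). NFAT, a transcription factor gene, had an intronic peak at 1667 bp with 3768 (1030, 1226 and 1537). The long noncoding RNA gene CR44619 had a peak of 4482 at 515 bp upstream of its start site, in a noncoding exon, and one of 3618 at 497 bp downstream. Among all peaks of replicates 1, 2 and 3, the Tlk peak ranked 34, 24 and 34 and the NFAT peak 46, 38 and 53.

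Among the 25 strongest X peaks, 12 summits were at promoters (within 500 bp of an annotated start site), 11 in introns, 1 in a 5′ UTR and 1 in another exon, and none was in a coding exon, in a 3′ UTR or between genes. The others at promoters included Atf3, a stress-responsive transcription factor gene (3212), bves, a gene of the Popeye family (2923), elav, the neuronal RNA-binding protein gene (2574), and the tyrosine phosphatase gene Ptpmeg2 (2519). Those in introns included the nuclear receptor gene Hr4 (2569), norpA, which encodes the phospholipase C of phototransduction (2567), and the forkhead factor gene CHES-1-like (2367). The lowest replicate rank of any of the 25 was 222. Since the replicate lists went into the thresholded one, some of this agreement follows from the way the list was built.

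**Figure D1:**
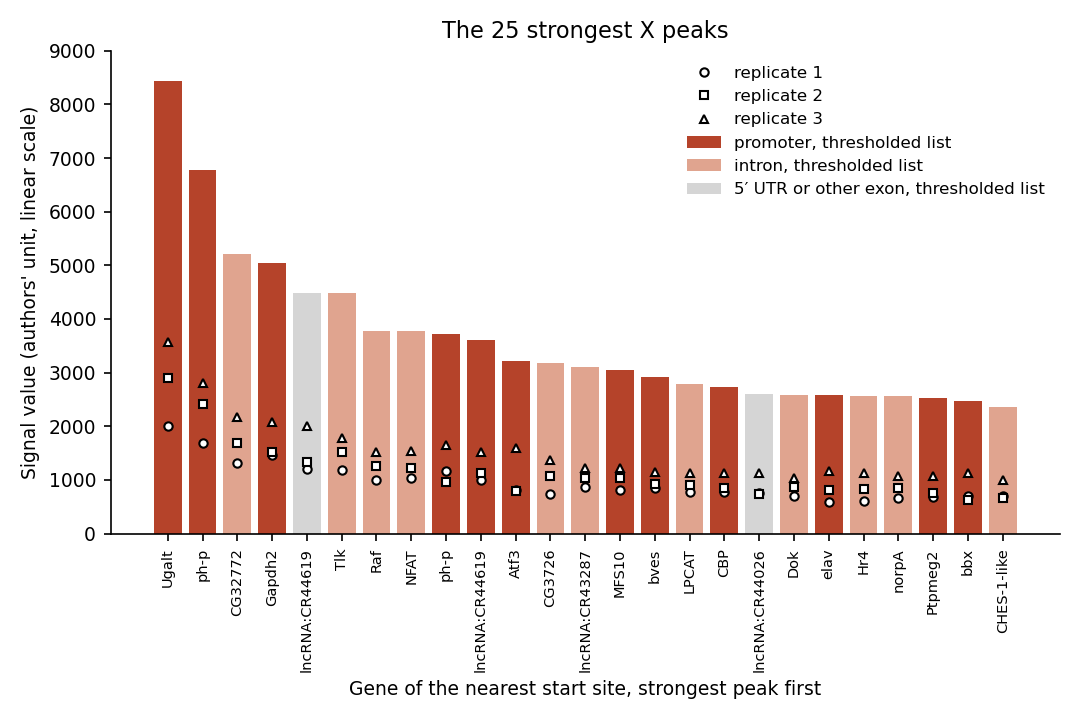
Signal value of the 25 strongest X peaks (bars, thresholded list, coloured by location) with the value of the overlapping peak in each replicate (symbols), on a linear axis in the authors' unit. The bars run from 8435 at Ugalt to 2367 at CHES-1-like, and promoter and intronic peaks are mixed through the order.

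Beyond the leading peaks, X peaks were slightly weaker than autosomal ones. The median signal value was 380.0 for X peaks, with a range of 211.1 to 8435, and 390.9 for autosomal peaks, with a range of 211.0 to 8514, a difference of -0.04 on the log2 scale. In the replicates' own signal values of the same peaks, the X medians were 111.1, 113.7 and 168.1 and the autosomal medians 115.6, 120.0 and 175.9 in replicates 1, 2 and 3. The difference in log2 was -0.06, -0.08 and -0.07, with a mean of -0.07 ± 0.01 (SD, n = 3). X was lower in 3 of 3 replicates, and an exact two-sided sign-flip permutation test gave p = 0.25. That is the smallest p that this test can give with 3 replicates, so none of the sign-flip tests here can pass the usual threshold, and the SD over replicates and the range of the 4 large autosomal arms are given in its place. In each replicate X lay below all 4 of those arms, but close to the lowest, 3L. The log2 medians in replicates 1, 2 and 3 were 6.80, 6.83 and 7.39 on X and 6.83, 6.85 and 7.40 on 3L.

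By class the difference in signal was largest at promoters among the 3 main classes. X promoter peaks had a median signal value of 383.1 and autosomal promoter peaks 414.1, a difference of -0.11 (log2), and the replicates gave -0.13 ± 0.02 (SD, n = 3). Intronic peaks had medians of 381.3 on X and 377.7 on autosomes, and intergenic peaks had 366.1 and 367.1. The replicates' difference at introns was -0.003 ± 0.02 (log2; SD, n = 3), smaller than its spread, and that at intergenic peaks was -0.08 ± 0.03. The share of X in the list also changed little with strength. X held 20.2% of the 500 strongest pooled peaks and 20.4% of those ranked 4001 to 7287, with 18.6% to 19.4% in the ranks between.

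The replicates overlapped on X about as well as elsewhere. Among the 7287 strongest peaks of each replicate, 76.2%, 73.8% and 72.6% of the X peaks of replicates 1, 2 and 3 overlapped, by 1 bp or more, a peak of both other replicates. The autosomal values were 72.5%, 70.7% and 72.8%. X was higher in 2 of 3 replicates. The difference of 2.18 ± 2.13 points (SD, n = 3) was about as large as its spread (exact two-sided sign-flip permutation test, p = 0.5). All 3 replicates supported 1024 of the 1434 X peaks (71.4%) and 4205 of the 5853 autosomal peaks (71.8%) of the thresholded list. X peaks were narrower, with a median width of 298.5 bp against 335.0 bp on autosomes. A single exact width was shared by 32.1% of X peaks and 38.7% of autosomal peaks, and its part in the difference of medians was not tested. On X, 9 intervals held 2 summits each, so the 1434 peaks lie in 1425 intervals, and 5853 autosomal peaks lie in 5812.

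Introns were where X peaks were most frequent. Of the X summits, 717 (50%, exact 95% binomial interval 47.4% to 52.6%) lay in introns, against 2239 (38.3%, 37.0% to 39.5%) of autosomal summits. The replicates gave 50.4%, 50.1% and 49.6% on X and 37.3%, 37.1% and 38.5% on autosomes, a difference of 12.4 ± 1.17 points (SD, n = 3). The groups did not overlap, and the 4 large autosomal arms ranged from 36.9% to 40.3% in the thresholded list. X introns covered 43.3% of the arm and autosomal introns 38.6% of theirs. Per Mb of intron there were 70.3 summits on X and 52.5 on autosomes, a ratio of 1.34, with 1.31, 1.32 and 1.31 in the replicates.

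Promoters and intergenic sequence held smaller shares of X peaks. Promoter summits were 533 on X (37.2%, exact 95% binomial interval 34.7% to 39.7%) and 2513 on autosomes (42.9%, 41.7% to 44.2%). The replicates gave 37.1% ± 0.157 on X and 43.8% ± 0.991 on autosomes (SD, n = 3), a difference of -6.67 ± 0.847 points that had 1 sign in 3 of 3 replicates (exact two-sided sign-flip permutation test, p = 0.25). The lowest large autosomal arm had 37.9%, close to the X value, so the X share stood only just outside the range of arms. Per Mb of promoter, X held 179.6 summits and the autosomes 165.6, and the ratio in the replicates was 1.03 ± 0.0446 (SD, n = 3), within 1 SD of equality. Intergenic summits were 130 on X (9.07%) and 948 on autosomes (16.2%), outside the range of 11.97% to 20.9% of the large arms. Per Mb of intergenic sequence the ratio was 0.80, and 0.81 ± 0.0330 in the replicates (SD, n = 3). By this density X lay inside the range of the large arms. It had 24.5 summits per Mb of intergenic sequence, against 20.5 on 2R, 29.5 on 3R, 35.3 on 2L and 35.7 on 3L.

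The exon classes were small. The 3′ UTR held 27 X summits (1.88%) and 48 autosomal ones (0.820%), and in replicates 1, 2 and 3 the X shares were 1.75%, 1.45% and 1.96% and the autosomal shares 0.761%, 0.898% and 0.802%. X was above every large arm in 3 of 3 replicates, and per Mb of 3′ UTR the ratio was 1.64 ± 0.366 in the replicates (SD, n = 3). Coding exons held 2 X summits and 14 autosomal ones, 5′ UTRs held 10 and 36, and other exons held 15 and 55.

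**Figure D2:**
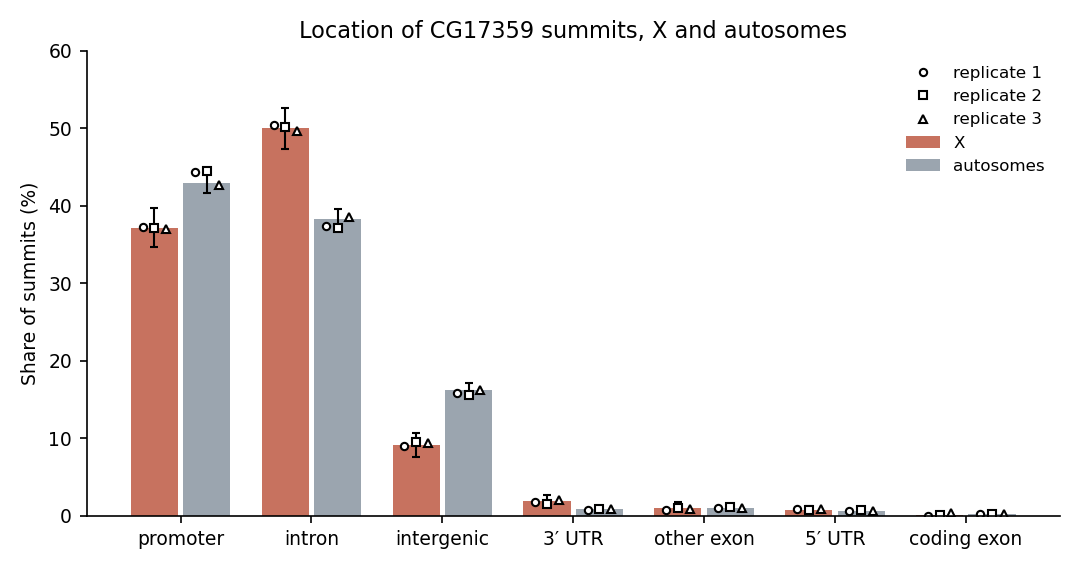
Share of summits in each of 7 location classes, on X (left bar of each pair) and on the autosomes (right bar). Bars are the thresholded list with exact 95% binomial intervals, which cover counting of peaks only, and symbols are the 7287 strongest peaks of each replicate. The intron bars stand at 50% for X and 38.3% for autosomes, and no replicate of X reaches a replicate of the autosomes in the promoter, intron or intergenic class.

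X summits also lay farther from genes' start sites. The median distance to the nearest start site was 1142 bp on X and 790 bp on autosomes in the thresholded list. In replicates 1, 2 and 3 it was 1100, 1126 and 1119 bp on X and 733, 720 and 812 bp on autosomes. Within promoters the median distance was 161 bp on X and 123 bp on autosomes, and 72.6% of X promoter summits and 74.7% of autosomal ones were upstream of the start site. Of the X summits 306 (21.3%) lay more than 5 kb from any start site, against 1037 (17.7%) on autosomes. The nearest gene coded for protein at 89.0% of X peaks and 84.5% of autosomal peaks. X carries 2196 protein-coding and 617 other genes, and the autosomes 11749 and 3602. The part of these numbers in that difference was not tested.

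X had more peaks per Mb than the autosomes over all bases, and about as many where gene-poor sequence was left out. X held 19.7% of all peaks (exact 95% binomial interval 18.8% to 20.6%) on 17.6% of the called bases and 16.6% of the start sites. That is 61.1 peaks per Mb on X and 53.1 on autosomes, a ratio of 1.15, with the 4 large arms between 50.6 and 56.5. The replicates gave ratios of 1.09, 1.099 and 1.14, a mean of 1.11 ± 0.0274 (SD, n = 3; exact two-sided sign-flip permutation test, p = 0.25). When only bins of 1 Mb with 100 or more start sites were kept on every arm, a limit chosen after seeing the data, 22 Mb of X held 64.8 peaks per Mb and 93.0 Mb of autosomes held 62.7. The ratio was then 1.03, and the replicates gave 0.999 ± 0.0257 (SD, n = 3; exact two-sided sign-flip permutation test, p = 1). Per start site in place of per Mb the ratio was 1.23, and 1.19 ± 0.0294 in the replicates (SD, n = 3). With bases outside annotated repeats as the denominator, also chosen after seeing the data, it was 1.17.

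The excess of X peaks in introns was smaller but present in those gene-rich bins. Introns held 50.1% of X summits and 38.3% of autosomal summits there. Per Mb of intron there were 72.2 summits on X and 63.3 on autosomes, a ratio of 1.14, with 1.12, 1.13 and 1.12 in the replicates. Per Mb of intergenic sequence the ratio in these bins was 0.71, and 0.72 ± 0.0328 in the replicates (SD, n = 3). The promoter ratio was 1.03 ± 0.0456 in the replicates (SD, n = 3). X introns and 3′ UTRs were thus above the autosomal density under both denominators, and promoters were within 1 SD of it in the replicates. Intergenic sequence was below it, although over all bases 2R had a lower intergenic density than X.

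**Figure D3:**
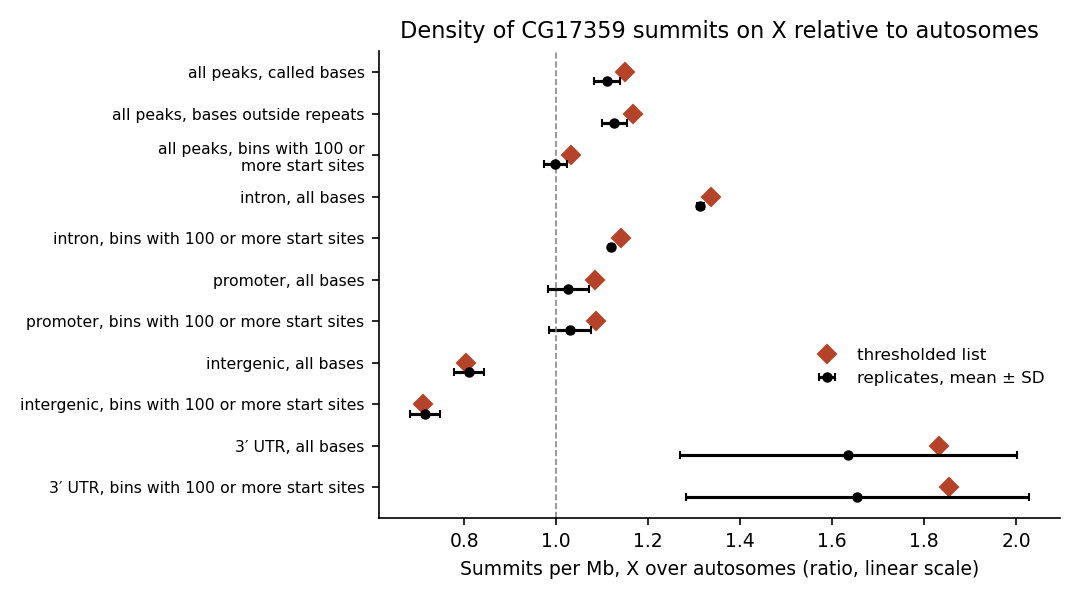
Density of summits on X over that on the autosomes (linear ratio, dashed line at equality), for all peaks and for 4 location classes, over all bases and in bins with 100 or more start sites. Diamonds are the thresholded list and dots with bars are the mean ± SD of 3 replicates. The ratio for all peaks moves to the line in gene-rich bins (1.03 in the thresholded list, 0.999 in the replicates), while introns have 1.34 over all bases and 1.14 in gene-rich bins, and intergenic sequence 0.80 and 0.71.

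Along the arm the peaks were uneven. The first 20 Mb of X held 1377 peaks (68.8 per Mb, and 66.98 ± 1.45 in the replicates; SD, n = 3), with 41 to 103 peaks per bin of 1 Mb. The last stretch, 3.48 Mb of called bases towards the centromere, held 57 peaks (16.4 per Mb, and 15.7 ± 1.58 in the replicates) with 107.3 start sites per Mb, against 176.7 start sites per Mb before it. The bin from 3 to 4 Mb had the most peaks, 103, with 92, 100 and 95 in the replicates, although it had only 112 start sites. Of its peaks 70 were in introns, and introns made up 69.5% of its bases. The bins from 22 to 23 Mb and from 23 to 24 Mb had the fewest, 5 and 3, with 6, 7 and 4 and with 3, 1 and 2 in the replicates. The last bin holds only 0.54 Mb of called bases.

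Peaks per bin followed introns more closely than start sites. Over the 23 bins with nearly complete sequence, Spearman's rho between peaks and start sites was 0.28, and between peaks and the intronic share of bases it was 0.56. For promoter peaks and start sites rho was 0.68. Bins are neighbours on 1 chromosome and share their libraries, so these are descriptions and no p is given. The counts per bin in pairs of replicates had Spearman's rho of 0.96 to 0.98.

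**Figure D4:**
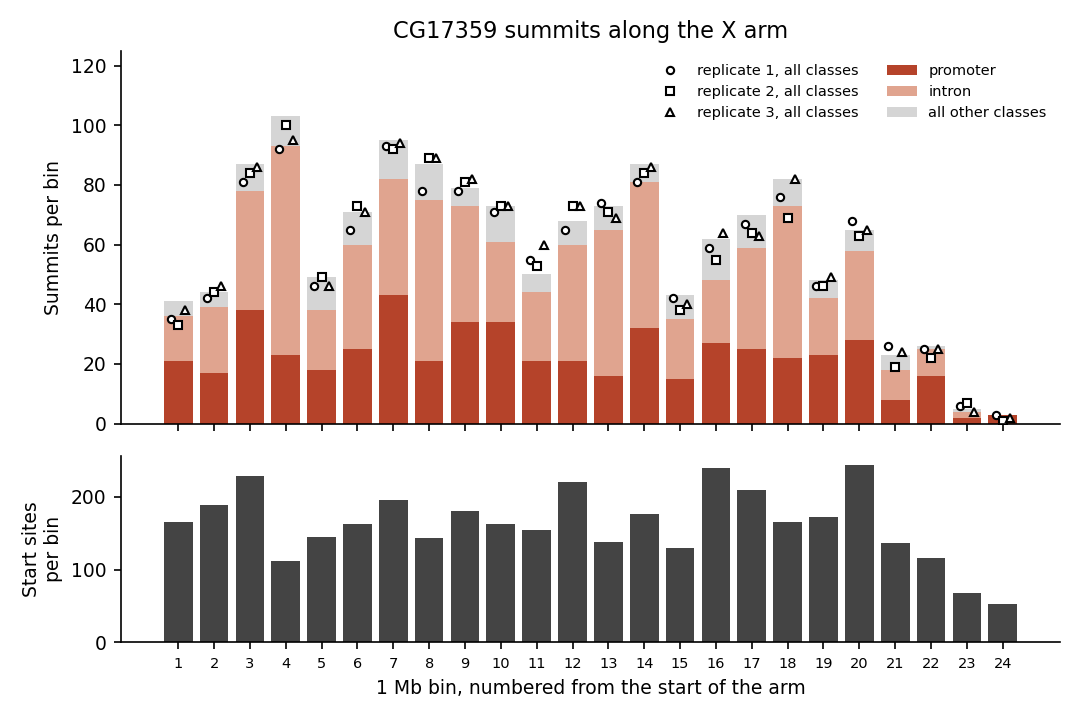
Upper panel: CG17359 summits in each bin of 1 Mb along the X, numbered from the start of the arm, split into promoter, intron and all other classes (bars, thresholded list), with the total in each replicate (symbols). Lower panel: annotated start sites in the same bins. The highest bar, 103 summits, stands over 112 start sites, and the last 2 bins hold 5 and 3 summits.

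The longest stretches of X without a thresholded summit were near the centromere. The longest, chrX:21631698-22478343, spanned 846.6 kb, with 28 protein-coding genes inside, among them tilB and Usp2, and 7.60% unknown bases. It held 2, 2 and 0 peaks in the strongest lists of replicates 1, 2 and 3. The next, chrX:22491327-22833734, spanned 342.4 kb and held 2, 3 and 1, and the third, chrX:20760551-21036123, spanned 275.6 kb, held 2, 0 and 1, and contained the innexin gene shakB. The longest autosomal stretch was 1440654 bp.

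How much more X peaks were grouped than autosomal ones depended on the rule. Neighbouring summits at most 5 kb apart were joined into chains, and 649 X peaks (45.3%) and 2633 autosomal peaks (44.99%) lay in chains of 3 or more. The replicates differed by 0.63 ± 0.640 points (SD, n = 3; exact two-sided sign-flip permutation test, p = 0.5). With chains of 4 or more the difference was 4.61 points in the thresholded list and 3.28 ± 0.678 in the replicates (SD, n = 3). In the 3643 strongest peaks, with chains of 3 or more, it was 3.802 points and 5.95 ± 1.29 in the replicates (SD, n = 3). Leaving out 1 replicate gave 1.42 to 5.29 points, the highest without replicate 1. Those values come from the peaks that the strongest lists of the remaining 2 replicates share, which is another set than the thresholded list. Chains of 5 or more peaks numbered 52 on X, or 2.22 per Mb, and 181 on autosomes, or 1.64 per Mb. The X densities were 2.13, 2.13 and 2.09 per Mb and the autosomal ones 1.70, 1.62 and 1.61 per Mb in replicates 1, 2 and 3. Introns held 58.6% of X peaks inside chains and 42.9% of those outside, and for autosomal peaks 43.3% inside and 34.1% outside.

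The 5 largest X clusters held 10 to 14 peaks each. The largest, chrX:7690825-7711000, held 14 peaks in 20.2 kb over CHES-1-like, a forkhead transcription factor gene, and the neighbouring lncRNA:CR43287. Their signal values ran from 216.1 to 3103 with a median of 737.6, 10 of the 14 were intronic, and the replicates had 12, 16 and 15 peaks there. The second, chrX:6849648-6868544, held 13 peaks (14, 11 and 12 in the replicates) around CG14434, CG43736 and lncRNA:CR45531, and it also took in the start sites of CG4558 and the chitinase gene Cht11. The third, chrX:2293705-2306494, held 12 peaks in 12.8 kb over Raf and CG2865, with 11, 11 and 13 in the replicates. Clusters of 10 peaks each lay within Mnt, which encodes a Max-binding repressor (chrX:3678027-3696768), and within Smr, which encodes a nuclear receptor corepressor (chrX:12717063-12738118). In the Smr cluster all 10 summits were intronic, and in Mnt 9 were.

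Long genes collected the most summits. The body of kirre, which encodes an adhesion protein of myoblast founder cells, spans 394.1 kb and held 35 summits, of which 29 were intronic, with 29, 31 and 29 in the replicates. CG1677 held 20 in 124.7 kb, the teneurin gene Ten-a 17 in 291.5 kb, and CG43658 16 in 105.0 kb. CHES-1-like, Tlk and the integrin gene mew each held 13. By length CHES-1-like was the densest of these, with 48.1 summits per 100 kb, against 8.88 in kirre and 5.83 in Ten-a. Of the protein-coding genes, 59 of 2196 on X (2.69%) and 166 of 11749 on autosomes (1.41%) held 5 or more summits in their body.

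Genes were next read one by one, and a gene counted as occupied if any annotated start site of it had a summit at most 500 bp away. On X 534 of 2196 protein-coding genes were occupied (24.3%), against 2792 of 11749 on autosomes (23.8%), and 23.9% over all arms. The replicates gave 23.8% ± 0.736 on X and 24.5% ± 0.744 on autosomes, a difference of -0.61 ± 1.48 points (SD, n = 3), opposite in sign to the thresholded list and smaller than its spread. The direction therefore cannot be given. Among other genes 54 of 617 on X (8.75%) and 335 of 3602 on autosomes (9.3%) were occupied. Counts for the groups below were read against these shares.

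Genes for cytoplasmic ribosomal proteins on X were occupied throughout. All 14 had a promoter summit in the thresholded list, with 14, 14 and 13 in replicates 1, 2 and 3. On autosomes 59 of 78 had one (75.6%), and 76.5% ± 4.50 in the replicates (SD, n = 3). The high occupancy of this family was known from the whole list before, so the X count is a description and not independent evidence. The highest signal values were 1038 at RpS28b (226, 400 and 408 in the replicates), 798.5 at RpS10b (230, 286 and 307) and 782.7 at RpL22 (225, 250 and 305). RpL17 followed with 540.6, and the lowest was 242.9 at RpS14b. In 12 of the 14 genes the summit was at most 60 bp from a start site, and the median distance was 26.5 bp, against 168 bp for the remaining 520 occupied protein-coding genes of X. On autosomes these medians were 27.0 bp and 141 bp. The 2 summits farther out were those of RpS5a at 111 bp and RpS6 at 450 bp. RpS14a and RpS14b are near-identical neighbouring copies, so how reads were shared between them is uncertain.

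Genes for mitochondrial ribosomal proteins on X had no promoter summit. The count was 0 of 11 in the thresholded list and in each replicate. That allows a share of up to 27.3% by a limit of 3 counts (exact 95% binomial upper bound 28.5%). Both limits lie above the 24.3% of all X protein-coding genes, so the count does not set these genes apart from that share. On autosomes 26 of 62 were occupied (41.9%), and 45.2% ± 1.61 in the replicates (SD, n = 3). The nearest summits were just outside the window at mRpS25 (546 bp), mRpL3 (634 bp) and mRpL33 (637 bp), and the farthest was 19140 bp away at mRpL30. Genes of oxidative phosphorylation were occupied at 4 of 12 on X and 19 of 72 on autosomes (26.4%). The 4 all encode subunits of respiratory complex I, ND-ASHI (1553), ND-24 (831.0), ND-MNLL (532.9) and ND-20 (215.0), as do 9 of the 12 genes listed. None of 25 chemoreceptor genes was occupied on X, which allows a share of up to 12% by the same limit (exact upper bound 13.7%), and none of 154 on autosomes.

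**Figure D5:**
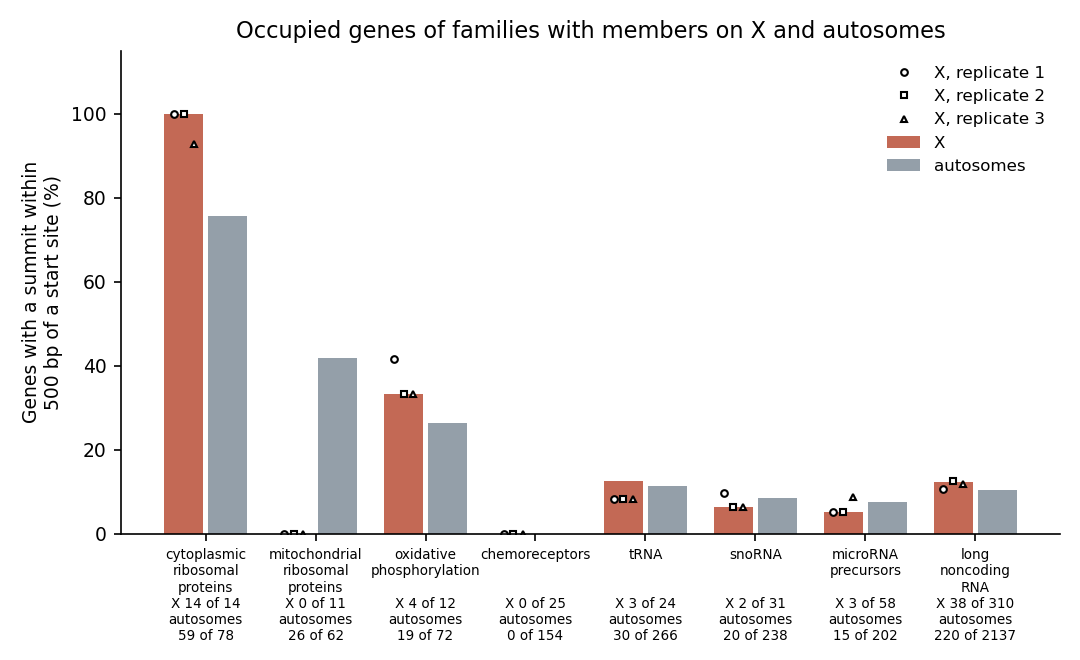
Share of genes with a summit within 500 bp of a start site, for 8 gene families on X (left bar) and on the autosomes (right bar), with the X share in each replicate as symbols. Ribosomal protein genes stand at 14 of 14 on X and 59 of 78 on autosomes, and mitochondrial ribosomal protein genes at 0 of 11 on X and 26 of 62 on autosomes.

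Of 8 sex determination genes, 2 had a promoter summit (25%, exact 95% binomial interval 3.19% to 65.1%), a share close to the 24.3% of all X genes. Sxl, the switch gene that is on in females, had one 437 bp inside a start site with a signal value of 684.3 (207, 208 and 297 in the replicates), and it held 5 summits in its body. The splicing factor gene snf had one of 218.1, near the bottom of the list, and that peak also lay at the start site of Cdk7. In the replicates snf was occupied in only 1 of 3, and replicate 1 had no peak overlapping this one. The X-linked signal genes sisA, sc, upd1 and run had none, nor had ovo and otu, genes of the female germline. The nearest summit was 1531 bp away at ovo, which held 2 summits in its body, 2143 bp away at otu, 4092 bp at sisA and 35503 bp at run. None of the genes listed under dosage compensation (roX1, roX2, mof and nonA) was occupied in the thresholded list. That is a count of 0 of 4 (exact upper bound 60.2%), and roX1 was occupied in 1 replicate. The nearest summit lay 1420 bp from roX2. None of the 4 proneural genes of the achaete-scute complex (ac, sc, l(1)sc and ase) was occupied.

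Neural genes on X had summits both at start sites and inside the genes. Of 23 listed, 8 had a promoter summit (9, 5 and 10 in the replicates). That share was 34.8% (exact 95% binomial interval 16.4% to 57.3%). The interval includes the 24.3% of all X protein-coding genes. The gene body held a summit in 16 of the 23, the 8 included. Over all protein-coding genes of X, 452 of 2196 had one in the body, and the neural list holds long genes such as kirre, Ten-a and dnc. The strongest promoter summits were at elav (2574; 584, 809 and 1158 in the replicates), dnc, a cyclic AMP phosphodiesterase gene (2359; 601, 807 and 971), the adhesion gene sdk (1015; 267, 233 and 504) and fne, a relative of elav (530.9; 149, 117 and 267). The homeobox gene ct had no promoter summit but held 6 in its body, up to 749.6. Shaker (Sh), the potassium channel gene, held 1 of 452.8. No summit lay in or at per, para, Appl, lz or vnd. The elav peak was also the promoter peak of lncRNA:enrr.

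The remaining lists of regulators are short, and their shares have wide intervals that include the 24.3% of all X genes. Early patterning genes had promoter summits at 4 of 17, namely sgg, the GSK3 kinase gene (1756), nej, which encodes the CBP acetyltransferase (368.4), sog, which encodes a BMP antagonist (309.7), and Notch, N (234.5). The gap gene gt had its nearest summit 32255 bp away. Polycomb and Trithorax genes had them at 4 of 11, which were ph-p (6785), its neighbour ph-d (407.8), e(y)2 (354.1) and fs(1)h (266.4). The list of cell cycle and growth genes had 2 of 11, Polr2A (228.9) and Cdk7 (218.1), and chorion and yolk genes had 1 of 11, fs(1)N (222.9). Polr2A, Cdk7 and fs(1)N were each occupied in only 1 of 3 replicates.

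RNA genes on X were occupied at low shares. The exact 95% binomial intervals for tRNA, microRNA precursor and snoRNA genes include the 8.75% of all X genes that do not code for protein. The interval for long noncoding RNA genes, which are themselves part of that group, starts just above 8.75%. The shares were 3 of 24 tRNA genes, 3 of 58 microRNA precursors, 2 of 31 snoRNA genes and 38 of 310 long noncoding RNA genes (12.3%, exact 95% binomial interval 8.82% to 16.4%). Autosomal shares were 11.3%, 7.43%, 8.40% and 10.3%. The strongest promoter peak of the long noncoding RNA genes was at CR44619 (3618), that of the microRNA precursors at mir-9377 (1251) and that of the tRNA genes at tRNA:Phe-GAA-1-2 (540.6). The tRNA peak was the peak of RpL17 described above, and it was also the strongest of the snoRNA genes, at snoRNA:Psi28S-1232.

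The sequence under X summits was poor in G and C, as under autosomal ones. Mean GC content in 200 bp was 35.6% on X and 35.2% on autosomes, against 41.9% and 43.2% in windows 500 bp to either side. The replicates differed by 0.32 ± 0.340 points (SD, n = 3), smaller than the spread. On X and on autosomes alike the summits were below the flanks and below the whole arms, at 42.5% and 42.1%.

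Of the 14 elements the A tract AAAAAA differed most in points between X and autosomal summits. On either strand of the windows from 50 bp before to 50 bp after the summit it was in 478 X windows (33.3%, exact 95% binomial interval 30.9% to 35.8%) and 1647 autosomal windows (28.1%, 27.0% to 29.3%). The replicates differed by 4.25 ± 0.437 points (SD, n = 3), and X was above all 4 large arms in 3 of 3 replicates. The difference was not confined to summits. Flank windows held the tract at 23.99% on X and 17.5% on autosomes, and windows of the same length tiled over the arms held it at 20.4% and 17.5%. Other repeats were likewise more common on X in general: the CA repeat CACACACA was in 1.95% of X summit windows and 3.02% of tiled X windows, against 1.38% and 1.90% on autosomes.

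The GAGA element GAGAG was rarer at X summits. It was in 111 X windows (7.74%, exact 95% binomial interval 6.41% to 9.25%) and 569 autosomal windows (9.72%, 8.97% to 10.5%), although tiled windows held it at 11.5% and 11.4%. The replicates differed by -2.14 ± 0.453 points (SD, n = 3), and X was below all 4 large arms in 3 of 3 replicates. In flanks it was in 14.5% of X windows and 13.5% of autosomal windows, so on both it was less frequent at summits than beside them. The DNA replication-related element TATCGATA was in 10 X windows (0.697%, exact 95% binomial interval 0.335% to 1.28%). It was in 65 autosomal windows (1.11%, 0.858% to 1.41%), and in flanks at 0.279% on X and 0.205% on autosomes. These intervals overlap, and X was outside the range of the 4 large arms in only 1 of 3 replicates. At X promoter summits the element was in 1.31%, against 2.55% at autosomal ones. The TATA box TATAAA was in 21.6% of X summit windows and 23.7% of autosomal ones, and in 12.1% and 11.1% of flanks. A match says only that these letters were present.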

How the data were processed

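Signal values and −log10 q values per peak were deposited by the authors in narrowPeak lists: 1 per replicate and 1 pooled, each ending at 30000 peaks, and a thresholded list of 7287 derived from these, per the text files deposited with them, and named for an irreproducible discovery rate (IDR) procedure. Per the same files all replicates shared 1 control. The build is dm6 per the labels. The lists came from an aligner, a peak caller and a cutoff not given in the sources used here. All thresholded peaks were pooled peaks with the same coordinates. The q values were not used to filter.

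Arm names and lengths fitted the Release 6 reference. Gene models were those of Ensembl 115, without transposable elements. Each summit took the first fitting class of promoter (500 bp either side of any start site), 5′ UTR, coding exon, 3′ UTR, other exon, intron and intergenic. Replicate errors come from the 7287 strongest peaks of each replicate. Whether replicates came from separate collections is not stated beyond the label biological, so SDs and p-values refer to these samples only. The spread between the samples is given by the SDs. The sign-flip p is 0.25 whenever all 3 replicates differ in the same direction, whatever their spread. Intervals are exact binomial (Clopper-Pearson) and cover counting of peaks only.

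The named genes were the nearest start-site genes of the 25 strongest X peaks, up to 4 occupied members of each list with the strongest promoter peak, the 5 largest clusters, the 5 genes with most summits, the bins with most and fewest peaks and the 3 longest empty stretches. List members beyond 4, genes without a summit and those in clusters were named after their values were seen. The members, lists and tests were chosen with earlier results of these data known. All list names were matched, e(y)1 as Taf9 and dec-1 as dec. Searches for over-represented words at autosomal summits, and for words that differ between strong and weak peaks, were tried after seeing the data and are not reported. Functions were tested on simulated peaks. Python 3.11.15, numpy 2.4.6, scipy 1.17.1 and matplotlib 3.10.9 were used.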

Additional observations from a re-analysis of the deposited data

How the results depend on the processing

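Of 60 other settings over 7 comparisons of X with autosomes, 53 kept the direction and 7 reversed it. The count includes settings added after seeing the data, also the one set aside below, and does not use replicate means. Some settings counted as kept had replicate means on the other side. These were density in bins with 100 or more start sites (1.03, replicates 0.999) and GC minus that of the arm (0.03, replicates -0.06). Another was occupancy without chromosome 4 (0.54, replicates -0.62). The sign-flip test gives no p below 0.25 with 3 replicates, so no setting could pass it. Gene occupancy, 0.55 points higher on X, turned to -1.28 with promoters of 250 bp, -1.22 in the 3643 strongest peaks, and -1.41 to -0.18 without each replicate in turn, and was 10.3 in the whole pooled list, so no direction holds. The signal difference was 0.0205 (log2) outside promoters and the GC difference -0.19 points in 100 bp. The cause of these was not tested. Each replicate was left out in turn, using peaks shared by the strongest lists of the remaining 2, or their mean for signal. The density ratio was then 1.12 to 1.15, the promoter difference -8.59 to -6.62 points and the signal difference -0.07 to -0.06. The clustered difference was 1.42 to 5.29 points and the GC difference 0.41 to 0.78 points. The agreement difference was 0.43 to 1.96 points. Overlap with both other replicates cannot be asked of 2, so this is another measure than the 2.18 points above. The lowest agreement value was that without replicate 2, and the highest clustered value that without replicate 1. The clustered difference was also 4.61 points with chains of 4 or more and 3.802 in the 3643 strongest peaks, against 0.27. The density ratio was 1.23 per start site, 1.03 in bins with 100 or more start sites and 1.17 outside repeats, the last 2 added after seeing the data. A ratio of 1.30 for the first 20 Mb of X against whole autosomes was also tried after seeing the data and set aside, since it trims X alone. No paired analysis was possible because the samples form 1 group, so replicate numbers pair no samples between groups, and X and autosomes were compared within each replicate. Depth is unknown, and weak peaks near the end of the list are the least certain.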

Other observations

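Close to each other on X lay the Smr cluster of 10 intronic peaks (chrX:12717063-12738118) and the peaks on both sides of the start site of lncRNA:CR44619 (4482 and 3618). The body of CG1677, which held the second highest number of summits on X, contained 2 of the 25 strongest X peaks, and these were nearest to the start sites of CBP (2741) and Dok (2588).

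A run of 14 bases, TTTAAAGTTAAGCG, was present in the summit windows of both CG32772 (chrX:4910352-4910365) and Gapdh2 (chrX:15867987-15868000). It was the longest run shared by any of the 300 pairs among the 25 strongest X windows. It occurs 4 times on the arms in all, and in no other summit window of the list. It was noticed after the sequences had been seen, and no test was made of it.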
